A study of Mus musculus with 6 samples.

Results

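The 486 regions described here are the strongest distal intergenic peaks that all 6 Arid3a CUT&Tag libraries of this study shared. The peaks of the 6 lists were merged wherever they overlapped by at least 1 bp, which gave 79295 regions. Within each list the deposited −log10 q of every peak was turned into a percentile, and a region took its highest peak in each list. A region was kept if it reached percentile 90 in all 6 lists and lay outside every protein-coding gene body and 5000 to 100000 bp from the nearest one in mm10. Of 29602 regions with a peak in all 6 lists, 3082 reached percentile 90 in every list. Of these, 2328 overlapped a protein-coding gene body, 145 lay under 5000 bp outside one, 123 lay over 100000 bp away, and 486 met the whole rule. The members were thus chosen by the deposited −log10 q of all 6 lists, and their strength is given below as a description without a test.

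Arid3a was profiled in primary mouse vascular smooth muscle cells (VSMCs), bought from a supplier, with 10000 cells per assay. Of the 6 libraries, 3 came from cells transfected with a negative control siRNA (NC-labelled) and 3 from cells transfected with siRNA 1, 2 or 3 against Arid3a (siRNA-labelled), for 24 h. Strain, age and genotype of the mice are not in the labels. The protocol describes an aneurysm model with 36 h of angiotensin II, but the labels do not say which libraries had it or whether the cultures of a group were separate, so p-values measure only how far these samples spread, which may be technical. Since each siRNA-labelled library had its own siRNA, that group also mixes reagents. The peak names inside all 6 lists carry the name of the other group, so the directions given here follow the labels of the samples and would be opposite under the names of the peaks. The lists held 43834 to 51682 peaks, and the background solved from the peak statistics ranged over 0.621 to 0.673 fragments per base in NC-labelled libraries, with 0.475 to 0.538 in siRNA-labelled ones, so coverage and group cannot be told apart. CUT&Tag measures where the protein sits and not its transcript, so the peak lists do not check the knockdown, and no library without the Arid3a antibody was used here.

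Arid3a is a transcription factor of the ARID family and binds AT-rich DNA through its AT-rich interaction domain. In CUT&Tag an antibody tethers a cutting enzyme, a transposase, to its target, and the fragments released there pile up at a summit. Distal regions bound by transcription factors are often enhancers, which act on genes over long distances, and the nearest gene is not always the gene they act on. Transposases can also cut open chromatin away from the antibody, which peak lists of the antibody libraries do not separate.

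Sequence was at hand for the non-coding gene starts inside 27 of the 486 regions, for which RefSeq gives 300 bases around the start, and 5 of these are shown. Each is written 5′ to 3′ on the strand of its gene (GRCm38.p6, the assembly of mm10), from 250 bases before to 50 after the start. Capitals mark matches on either strand to TGACGTCA (CRE), TGANTCA (AP-1), GGAATG (TEAD) and CCAAT. The first set shows a very strong region (start of the long non-coding RNA (lncRNA) gene Gm39054, chr7:98815881-98816180, plus strand) and a region that was lower in the siRNA-labelled libraries (Gm35692, chr17:45828833-45829132, minus strand). The second set shows starts with motif matches: Gm19619 (chr5:91283027-91283326, minus strand), the microRNA host gene Mir22hg (chr11:75461289-75461588, plus strand) and Gm40491 (chr12:86833714-86834013, minus strand).
Gm39054: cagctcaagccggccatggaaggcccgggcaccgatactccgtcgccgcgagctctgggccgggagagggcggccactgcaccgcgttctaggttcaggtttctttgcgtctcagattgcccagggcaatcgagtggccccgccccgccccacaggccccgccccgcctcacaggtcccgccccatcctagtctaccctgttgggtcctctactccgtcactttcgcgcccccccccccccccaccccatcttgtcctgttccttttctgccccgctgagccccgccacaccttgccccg
Gm35692: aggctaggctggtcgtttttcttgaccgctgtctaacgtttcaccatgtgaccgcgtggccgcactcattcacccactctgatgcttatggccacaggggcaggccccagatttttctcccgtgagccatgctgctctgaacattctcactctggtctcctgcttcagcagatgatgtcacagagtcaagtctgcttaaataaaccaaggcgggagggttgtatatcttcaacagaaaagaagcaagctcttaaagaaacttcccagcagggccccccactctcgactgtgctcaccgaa
Gm19619: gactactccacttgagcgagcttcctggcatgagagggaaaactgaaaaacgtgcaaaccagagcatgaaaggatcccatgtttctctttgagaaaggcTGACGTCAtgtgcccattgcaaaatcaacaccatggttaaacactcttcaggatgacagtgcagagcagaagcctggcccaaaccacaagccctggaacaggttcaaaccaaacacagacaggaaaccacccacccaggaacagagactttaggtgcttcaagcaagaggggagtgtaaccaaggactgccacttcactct
Mir22hg: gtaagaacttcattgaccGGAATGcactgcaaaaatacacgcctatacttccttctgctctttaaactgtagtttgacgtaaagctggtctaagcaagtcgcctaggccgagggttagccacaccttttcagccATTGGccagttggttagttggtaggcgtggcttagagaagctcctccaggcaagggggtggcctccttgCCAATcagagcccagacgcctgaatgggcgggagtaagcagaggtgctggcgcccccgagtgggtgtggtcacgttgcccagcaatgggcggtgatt
Gm40491: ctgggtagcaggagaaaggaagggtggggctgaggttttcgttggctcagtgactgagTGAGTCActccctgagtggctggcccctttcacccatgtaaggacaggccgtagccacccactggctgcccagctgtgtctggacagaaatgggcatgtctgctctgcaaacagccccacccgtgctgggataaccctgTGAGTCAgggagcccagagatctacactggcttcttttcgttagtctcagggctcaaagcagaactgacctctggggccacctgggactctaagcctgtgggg
The Gm39054 start was 69.0% G and C with 24 CpG dinucleotides and held no match to any of the motifs searched, which included ATTAA. Gm35692 held none either, at 52.0% G and C with 10 CpG. The median summit of the region lay outside the window of both of these, which were picked because their regions passed the test between groups. The other 3 were picked as the strongest regions whose window held the median summit. Nothing is therefore read from the place of the summit beside the motif matches. Gm19619 held 1 CRE match, Mir22hg held 1 TEAD and 2 CCAAT matches, and Gm40491 held 2 AP-1 matches. A match says only that these letters occur in the window.

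Across all 29 such windows that lay in these regions (28 non-coding genes in 27 regions), the median G and C content was 59.3%, against 48.3% over all 11587 non-coding start windows of the table and 52.7% over the 154 windows in weaker shared distal regions. CpG dinucleotides numbered 11 at the median, against 4 and 7. CRE matches were in 3 windows (10.3%), against 0.975% of all and 3.9% of the weaker. AP-1 matches were in 3 windows (10.3%), against 9.31% of all and 27.9% of the weaker. TEAD matches were in 6 (20.7%, against 16.6% and 18.8%), CCAAT in 6 (20.7%, against 36% and 40.3%) and the AT-rich letters ATTAA in 6 (20.7%, against 33.8% and 23.4%). The median summit of the 6 lists fell inside 17 of the 29 windows. With 29 windows these shares are a description and were not tested.

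A very strong region, chr7:98815561-98816755, lay 18328 bp upstream of Wnt11, which encodes a non-canonical Wnt ligand, and covered the start of Gm39054 and a proline tRNA gene (n-TPagg7). Its summits held 519, 482 and 487 fragments for NC-labelled replicates 1 to 3, against 471, 525 and 578 for siRNA-labelled replicates 1 to 3, and values below keep this order. These values overlapped between the groups before scaling for coverage with a median-ratio factor per library. The next, chr13:55189746-55190746, lay 19035 bp from Nsd1, a histone H3 lysine 36 methyltransferase, and held 329, 349 and 326 against 275, 367 and 366 fragments. Another, chr13:103977962-103978858, was 44191 bp downstream of Nln, a neuropeptide-cleaving peptidase, with 341, 326 and 315 against 289, 258 and 306. A further one, chr7:73617725-73618926, was 75978 bp from Chd2, a chromatin remodeller, with 389, 393 and 352 against 241, 300 and 317. Near Nln and Chd2 every siRNA-labelled value was lower before scaling. After scaling the groups overlapped near Nln, and near Chd2 the siRNA-labelled values were still all lower (limma adjusted p = 0.51). Near Nsd1 the groups overlapped before scaling, and after it all siRNA-labelled values were higher (limma adjusted p = 0.0666).

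Of the 12 strongest regions, 7 more had median summits of 215.5 to 309.5 fragments over the 6 libraries. Their nearest protein-coding genes were Glrp1 (chr1:88474420-88475865, 24005 bp), Abcb9 (chr5:124046630-124047518, 14338 bp), Erc1 (chr6:119864155-119865241, 15970 bp), E330021D16Rik (chr6:136468088-136468879, 48214 bp), Tmem230 (chr2:132212022-132212689, 26802 bp), Fbxo32 (chr15:58256733-58257397, 41840 bp) and Tomm20 (chr8:126849239-126850322, 80341 bp). Abcb9 encodes a lysosomal peptide transporter, Fbxo32 the muscle ubiquitin ligase atrogin-1 and Tomm20 a receptor of the mitochondrial import machinery. The region near Tomm20 covered the start of another lncRNA gene, A630001O12Rik. The plot of these strongest regions shows the fragments of each library.

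**Figure D1:**
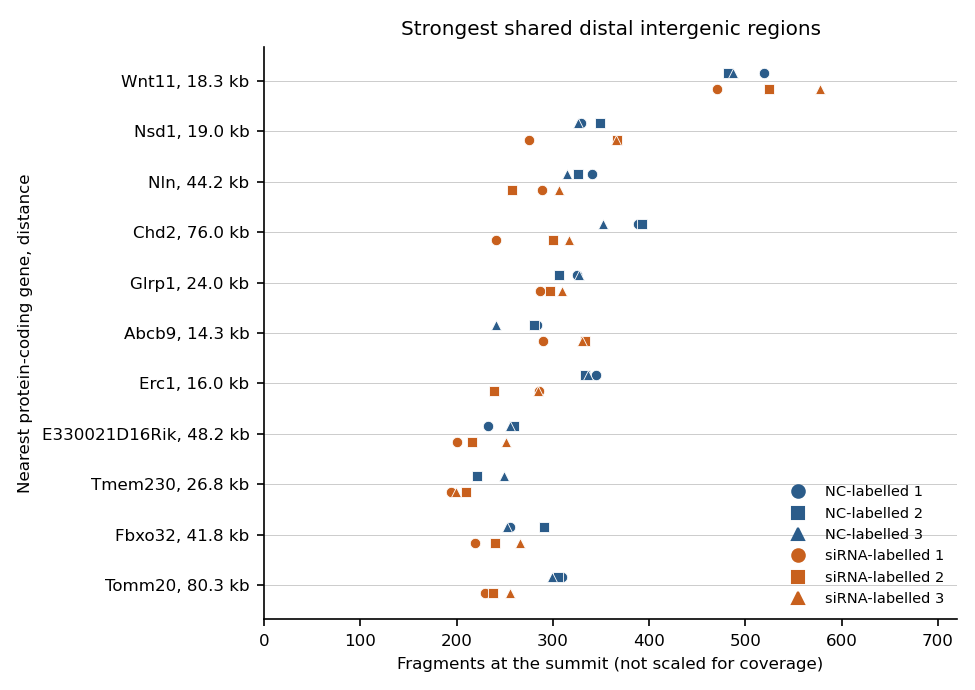
Fragments at the summit of 11 of the 12 strongest regions in each library, not scaled for coverage (x axis), by nearest protein-coding gene and distance (y axis). Blue marks are NC-labelled and orange marks siRNA-labelled libraries, and shape gives the replicate number. The region near Wnt11 stands above the others shown in all 6 libraries.

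Over all 486 regions the median summit held 100, 103.5 and 95.5 fragments in the NC-labelled group against 75, 83 and 88. The smallest summits held 44 to 51 and 35 to 41 fragments. Most regions therefore lay far below the one near Wnt11, and between 14 and 36 of the 486 passed 200 fragments in a given library. The deposited fold enrichment over the local background was much more even, with medians of 12.12, 12.47 and 12.21 against 12.2, 12.87 and 12.55. After scaling, the median summits were 89.9, 89.3 and 90.3 against 90.6, 90.5 and 89.3 fragments.

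The threshold fell in a continuum. Just inside it lay regions near Dnajb6 (smallest percentile 90.0416, 54 to 73 fragments over the libraries), Thbs2 (90.0550, 50 to 70) and Col5a1 (90.0739, 60 to 109). Just outside it lay regions near Dusp1 (89.9977, 74 to 116), Slc22a5 (89.9966, 46 to 84) and Zfand3 (89.9768, 49 to 70). The region outside the threshold near Dusp1 thus held more fragments than the first pair inside it.

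The regions were compact. Their median width was 904 bp (quartiles 760.5 to 1097.75 bp), against 734 bp for 5963 weaker shared distal regions and 995 bp for the equally ranked regions in gene bodies. The widest lay near Irf1 (2430 bp), an interferon regulatory transcription factor, Spen (2345 bp), a transcriptional corepressor, and Spop (2277 bp), a substrate adaptor of a ubiquitin ligase. The narrowest lay near Ly6c2 (366 bp), Slc4a1ap (392 bp) and Odc1 (415 bp), the last encoding the first enzyme of polyamine synthesis. Summit positions of the 6 lists spread over a median of 73 bp, against 162 bp in the weaker distal regions. They fell within less than 100 bp of each other in 330 regions (67.9%, against 25.7% of the weaker ones). The median summit held 90 fragments here and 21.5 in the weaker regions, and the part of this depth in the summit spread was not tested. In 29 regions (5.97%) at least 1 list held more than 1 peak. The local background was raised too, at a median of 11.22 times the background of the list, against 3.48 in the weaker distal regions and 11.6 in strong regions of gene bodies. Both strong sets passed the same threshold on −log10 q and the weaker one did not, so nothing is read from these differences.

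Many regions held non-coding genes. In all, 163 of 486 (33.5%) overlapped an annotated non-coding gene, against 24.9% of weaker shared distal regions, and 146 (30%, against 22.8%) overlapped an lncRNA gene. A non-coding gene start lay within 1000 bp of 56 regions (11.5%, against 5.62%). Counted from the median summit, so that width plays no part, 48 regions (9.88%) had such a start within 1000 bp, against 4.85% of the weaker ones, and 131 summits (27%) lay inside an lncRNA gene, against 20.8%. By class of smallest percentile, the share with a start near the summit was 3.91%, 4.91%, 5.23% and 5.35% below percentile 90 and 9.88% above it. The rule excluded protein-coding gene bodies only, so some members are starts of non-coding genes. With all genes of the table excluded, 315 regions met the rule, 249 of them among the 486.

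**Figure D2:**
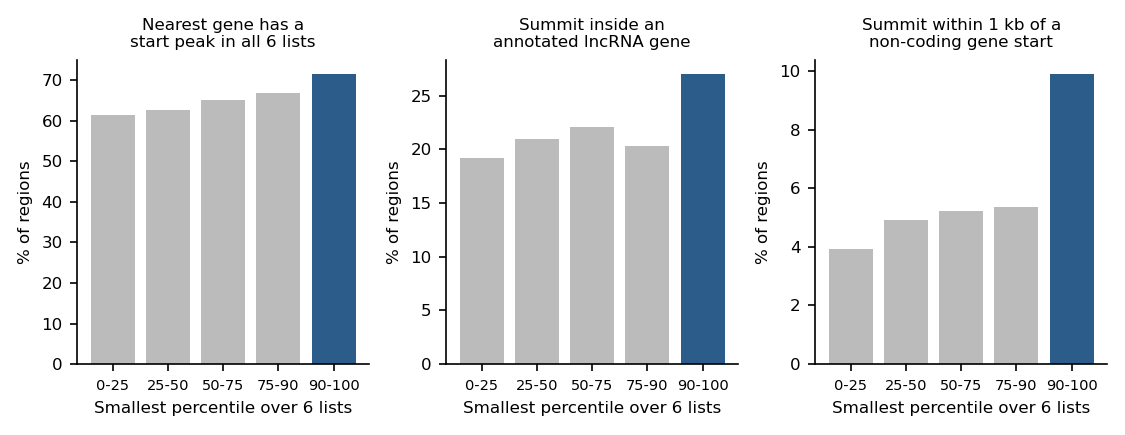
Share of shared distal regions (y axes, percent) with 3 features, by class of smallest percentile over the 6 lists (x axes). The blue bars are the 486 regions. From left to right the blue bars stand at 71.4%, 27.0% and 9.88%, each above the other classes.

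Several of these non-coding genes are well known. The start of Mir22hg, the host gene of miR-22, lay in a region 6081 bp upstream of Wdr81 (chr11:75460890-75461845). Its summits held 304, 292 and 316 fragments against 236, 266 and 293. The groups overlapped before and after scaling. Chaserr, an lncRNA that restrains Chd2, started in a region 16531 bp from Chd2 (chr7:73558278-73559157) with 145, 142 and 151 against 86, 135 and 126 fragments. Every siRNA-labelled value was lower there before scaling, and after it the groups overlapped (log2 difference −0.07, limma adjusted p = 0.848). The region near Gpr157 (chr4:150068064-150068854) contained Mir34a, a microRNA gene induced by p53, and held 63, 68 and 57 against 41, 47 and 46 fragments. Its groups did not overlap, but the difference did not pass (log2 difference −0.19, SE 0.14, limma adjusted p = 0.639). The mature microRNAs of that region follow with the seed (bases 2 to 8) in capitals, since the seed sets which transcripts a microRNA pairs with.
mmu-miR-34a-5p: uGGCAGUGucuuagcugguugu
mmu-miR-34a-3p: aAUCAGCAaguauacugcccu
The median summit lay 55 bp from the first and 99 bp from the second. The other microRNA gene was Mir7671, in the region near Irf1.

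Transfer RNA genes, transcribed by RNA polymerase III, lay in 5 regions (1.03%, against 0.604% of weaker distal regions), with 12 tRNA genes in all. Besides the region near Wnt11 these were near Rcsd1 (chr1:165641667-165643258, 2 tRNA genes), Cfap126 (chr1:171101895-171103072, 4), Stx11 (chr10:12922358-12923570, 1) and Trim55 (chr3:19627845-19629253, 4). The region near Cfap126 held 80, 94 and 85 against 78, 64 and 80 fragments, and that near Trim55 held 65, 68 and 63 against 48, 45 and 54. Near Trim55 every siRNA-labelled value was lower, and near Cfap126 the ranges met at 80 fragments.

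The nearest protein-coding genes numbered 419, of which 366 were nearest to 1 region, 43 to 2, 7 to 3, 2 to 4 and 1 to 5. The median distance was 25887 bp (quartiles 12516 to 47790 bp), with 202 regions within 20000 bp and 375 within 50000 bp. Of the 363 regions whose gene has a known strand in the table, 198 (54.5%) lay upstream and 165 downstream. None had Arid3a as its nearest gene.

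Most of these genes also carried a peak at their own start, a readout the rule did not use. A peak within 1000 bp of the start (of either gene end where the table gives no strand) was present in all 6 lists for 295 of the 419 genes (70.4%), against 9869 of 21883 protein-coding genes (45.1%). The weaker shared distal regions gave 60.4% of their nearest genes. Counted by region, 347 of 486 (71.4%) had such a gene, and the lower classes gave 61.3%, 62.6%, 65.2% and 66.9%. Most of the gap to all genes was thus also present near weak distal regions. With windows of 500 and 2000 bp the counts were 329 and 366 regions. E330021D16Rik, Cartpt, Notch3 and Lrrc74a were among the 65 nearest genes with no start peak in any list.

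Sets of genes with known roles in VSMCs, together with marker genes of other cell types, were then counted among the nearest genes. Over 16 lists, 44 of 364 genes (12.1%) were nearest to a region, against 419 of 21883 protein-coding genes (1.91%). The lists hold many regulatory genes, which may have long flanks, and flank length was not measured. They were drawn up with earlier results of these data known and were not tested as sets. The endothelial (0 of 14), macrophage and blood (0 of 15) and neural and epithelial (0 of 15) marker lists held none, nor did the matrix-degrading proteases (0 of 20). At the share of 1.91%, most lists of 14 to 20 genes would hold none, so nothing is read from these counts of 0. With both flanking genes counted up to the upper distance limit of the rule, the endothelial, macrophage and blood, and protease lists held 1 each. The neural and epithelial list still held 0. Start peaks in all 6 lists were present at 1 of 14 endothelial, 3 of 15 macrophage and blood and 2 of 15 neural and epithelial marker genes. Among contractile smooth muscle genes they were present at 10 of 20 (50%), near the 45.1% of all protein-coding genes (9869 of 21883). No cell type is read from these counts.

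The immediate-early genes were the best represented, with 8 of 27 nearest to a region. These genes respond to stimuli within minutes, and all 27 had a start peak in every list. Ier3, an early gene that modulates cell survival, had a pair of regions 7721 and 44025 bp upstream. The nearer (chr17:35812903-35813991) held 220, 229 and 219 fragments against 118, 146 and 152, and the farther 99, 90 and 92 against 63, 65 and 70. In both, the groups did not overlap even after scaling. Myc, the proliferation factor, had a region 88551 bp away inside the lncRNA gene Pvt1 (chr15:62078913-62079936) with 104, 119 and 96 against 84, 90 and 106. Dusp6, a phosphatase that switches off ERK, had one 25472 bp upstream (chr10:99237124-99237758) with 95, 95 and 83 against 75, 94 and 91. Those near Myc and Dusp6 overlapped between groups before scaling. After scaling the groups still overlapped near Myc, while near Dusp6 all siRNA-labelled values were higher (limma adjusted p = 0.491). Nr4a1, a nuclear receptor, had one 7068 bp upstream with 118, 140 and 125 against 81, 100 and 108, all siRNA-labelled values being lower before scaling. Fos, Dusp1, Klf6 and Ier5 were the others, at 17936, 21211, 23546 and 8187 bp.

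Among inflammatory genes, 5 of 22 were nearest to a region. Cxcl1, a neutrophil-attracting chemokine, had a region 37767 bp upstream (chr5:90852690-90853477) with 142, 140 and 107 against 106, 129 and 131 fragments. Irf1 had the widest region of the set, 5753 bp upstream (chr11:53761831-53764260), with 203, 216 and 184 against 133, 149 and 168. Before scaling, the groups overlapped near Cxcl1 and were apart near Irf1. After scaling all siRNA-labelled values were higher near Cxcl1 (limma adjusted p = 0.45) and lower near Irf1 (limma adjusted p = 0.578), so neither difference passed. The others were Nfkb1, a subunit of NF-κB (20134 bp), the cytokine gene Lif with 2 regions (26271 and 35418 bp downstream) and the monocyte chemokine gene Ccl2 (27975 bp).

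Growth factor and TGF-beta genes were also among the nearest genes. Of 35 growth factor and receptor genes, 4 were nearest to a region. Hbegf, an EGF receptor ligand and smooth muscle mitogen, had a region 11205 bp away with 251, 233 and 229 against 214, 204 and 227 fragments. The siRNA-labelled values were lower before scaling and overlapped after it. Besides Wnt11, the list held Igfbp3, a binding protein of insulin-like growth factors (22137 bp), and Notch3, the Notch receptor of arterial smooth muscle (11680 bp). Of 22 TGF-beta genes, 4 were nearest to a region. Tgfbr3, the co-receptor betaglycan, had one 18175 bp away (chr5:107087212-107088391) with 167, 198 and 140 against 129, 157 and 153. Id2, an inhibitor of helix-loop-helix factors, had one 14088 bp upstream (chr12:25110181-25110946) with 135, 165 and 167 against 148, 156 and 178. Both overlapped between groups before scaling. After scaling the groups still overlapped near Tgfbr3, while near Id2 all siRNA-labelled values were higher (limma adjusted p = 0.118). The signal transducer Smad3 (78541 bp) and its inhibitory relative Smad6 (24707 bp) completed the list.

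Transcription factors of mesenchymal and vascular cells gave 4 of 36. Zeb1, which drives mesenchymal gene expression, had regions 44057 and 80506 bp away, and the first held 194, 173 and 156 against 135, 147 and 129 fragments. Gata6, a zinc-finger factor of smooth muscle, had regions 14972 and 41302 bp away with 77, 87 and 75 against 65, 90 and 93 at the nearer. Near Zeb1 every siRNA-labelled value was lower before scaling, and near Gata6 the groups overlapped. After scaling the groups at this region near Zeb1 overlapped. Snai1 (9912 bp) and Prrx1 (35331 bp) were the others.

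Structural genes were represented as well. Of 28 matrix genes, 4 were nearest to a region. Loxl1, a crosslinker of elastic fibres, had one 11016 bp away (chr9:58274879-58276706) with 138, 149 and 137 against 112, 109 and 112 fragments, and Lox, the related lysyl oxidase, one 5507 bp away with 103, 103 and 102 against 82, 92 and 90. In both, all siRNA-labelled values were lower before scaling and the groups overlapped after it. Col5a1, a fibrillar collagen chain, had 2 regions (23857 and 49651 bp upstream), and Tnc, the glycoprotein tenascin C, had 1 (29232 bp). Of 25 actin and adhesion genes, 7 were nearest to a region: Actb, Actg1, Cav1, Cdc42ep3, Itgb1, Myh9 and Ptk2. Actb, cytoplasmic beta-actin, had one at 12729 bp (chr5:142920706-142921302) with 104, 118 and 89 against 75, 107 and 101. Of 20 contractile genes only Vcl, the adhesion protein vinculin (36862 bp upstream), and Myocd, the coactivator of smooth muscle genes (95714 bp), were nearest to a region.

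The remaining lists gave few genes. Nfe2l2, the master regulator of the antioxidant response, was the 1 gene of 21 in the angiotensin II and oxidative stress list. It had a region 26514 bp upstream (chr2:75731178-75732219) with 162, 167 and 152 against 124, 129 and 150 fragments. The siRNA-labelled values were all lower before scaling, and after it the groups overlapped (log2 difference 0.03, limma adjusted p = 0.949). Tead4, a DNA-binding partner of YAP (25827 bp), was the 1 of 18 Hippo genes. Cdk6 (39208 bp) and Gadd45a (64844 and 67839 bp upstream) were the 2 of 23 cell cycle and p53 genes. Of 23 ARID and chromatin genes, Arid1b, a BAF remodeller subunit (85486 bp), and Kdm5a, a histone demethylase (8426 bp), were nearest to a region.

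Some genes had several regions around them. Irf2bp2, a transcriptional corepressor, was nearest to 5, lying 20134, 21494 and 71695 bp upstream and 36642 and 47564 bp downstream. The strongest (chr8:126614121-126615030) held 274, 306 and 254 fragments against 224, 279 and 272, so the groups overlapped before scaling. After scaling all siRNA-labelled values were higher, but the difference did not pass (log2 difference 0.18, SE 0.08, limma adjusted p = 0.344). Cebpb, a leucine zipper factor of inflammation and differentiation, had 4, all downstream, at 62396, 74558, 86751 and 98870 bp. The one at 86751 bp (chr2:167777184-167778073) covered starts of the lncRNA genes Gm14321 and Gm32287 and held 181, 175 and 146 against 111, 109 and 126. Its groups did not overlap, and the difference did not pass (log2 difference −0.24, SE 0.10, limma adjusted p = 0.297). A gap between Irf2bpl, a relative of Irf2bp2, and Lrrc74a held 6 regions, the most of any gap, with 3 nearest to each gene. Irf2bpl had a start peak in all 6 lists and Lrrc74a in none. Thbs2, the matrix protein thrombospondin 2, had 3, and Tomm20 had 3. Over the genome, 70 gaps between protein-coding genes held at least 2 regions and 161 of the 486 in all, and 31 neighbouring pairs lay within 10000 bp of each other.

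**Figure D3:**
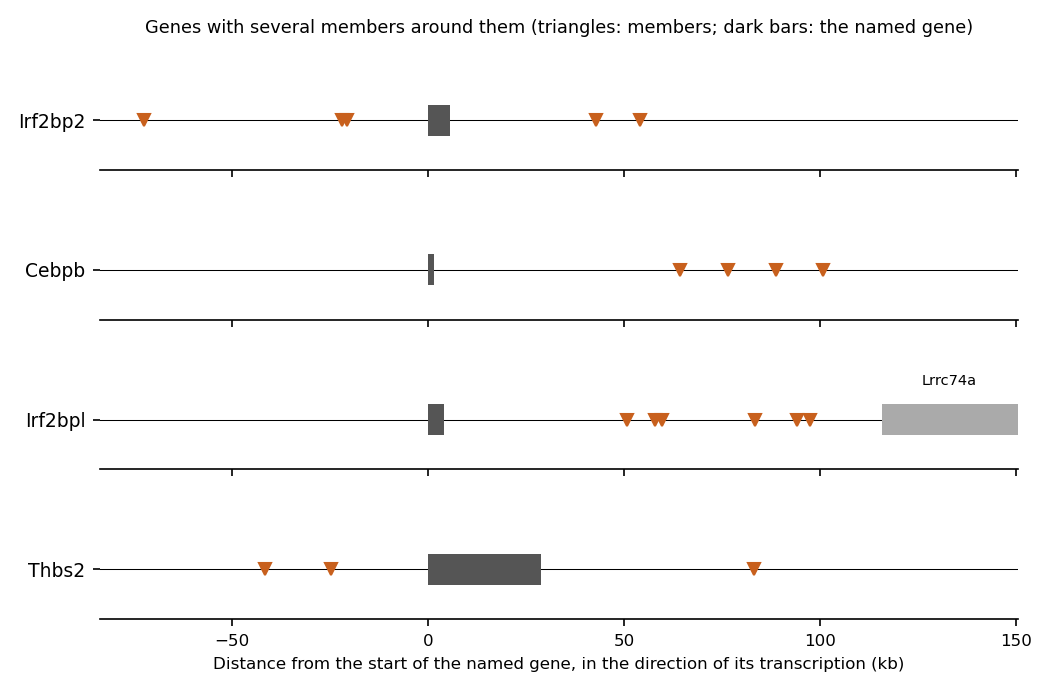
Positions of regions (triangles) around 4 genes with several of them. The x axis is the distance from the start of the named gene in the direction of its transcription, in kb, and bars are gene bodies. Cebpb has its 4 regions downstream only, while Irf2bp2 has regions on both sides.

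The design asks whether occupancy differed between the siRNA-labelled and the NC-labelled libraries, and at nearly all of these regions no difference passed the test. The fit was limma on log2(scaled fragments + 1) with Benjamini-Hochberg adjustment over all 29602 shared regions. Of the 486 regions, 9 passed an adjusted p of 0.05 (1.85%), 7 higher and 2 lower in the siRNA-labelled libraries. Over all shared regions 68 passed (0.23%), 29 higher (0.098%) and 39 lower (0.132%). Among equally strong regions in gene bodies 14 passed (0.601%), and among weaker distal regions 9 (0.151%). The median SE was 0.117 (log2) here, 0.117 in the gene-body regions and 0.192 over all shared regions, and its part in these shares was not tested. At an unadjusted p of 0.05, 100 of the 486 passed (20.6%), against 11.4% of all shared regions and 17% of the strong gene-body regions. The median log2 difference was −0.005 (quartiles −0.12 to 0.12, range −0.47 to 0.84). The siRNA-labelled values all lay above the NC-labelled in 53 regions (10.9%, background 7.76%) and all below in 62 (12.8%, background 8.16%).

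**Figure D4:**
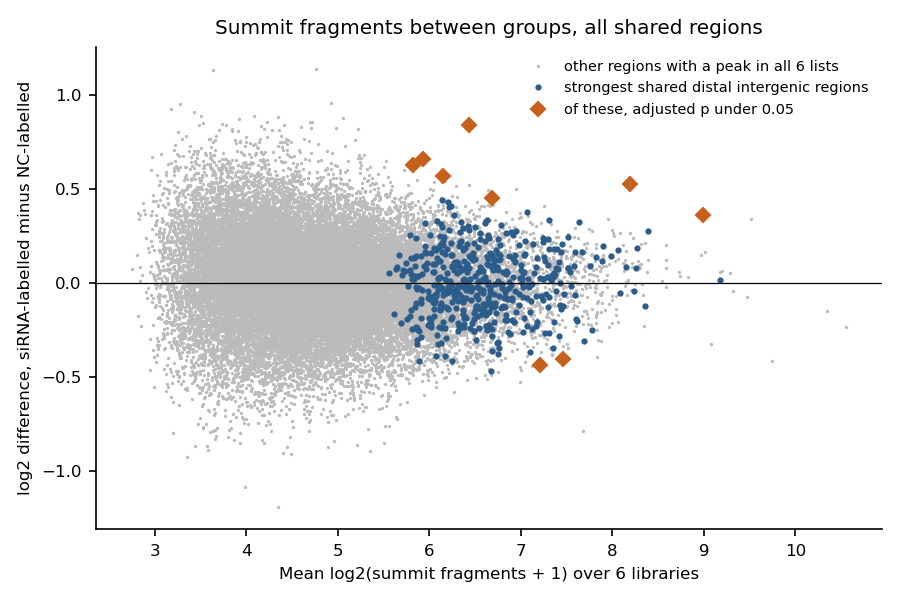
Log2 difference in scaled summit fragments, siRNA-labelled minus NC-labelled (y axis), against the mean log2(summit fragments + 1) over the 6 libraries (x axis), for all 29602 shared regions. The 486 regions are blue and the 9 with an adjusted p under 0.05 orange, from −0.44 to 0.84.

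The largest difference was near Perp, a p53-induced desmosomal protein gene (chr10:18875985-18876800, 18911 bp). Scaled fragments were 54.8, 65.5 and 70.9 under the control siRNA label against 94.2, 130.9 and 121.7 under the Arid3a siRNA label (log2 difference 0.84, SE 0.12, limma adjusted p = 7.02e-05). Here and in the regions near Acot11, Cartpt and Abcb9, the siRNA-labelled values also all exceeded the NC-labelled before scaling. The other flanking gene is Tnfaip3, an inhibitor of NF-κB, 124109 bp away. The region near Abcb9 had scaled values of 255.6, 241.7 and 228.0 against 349.7, 363.0 and 334.7 (log2 difference 0.53, SE 0.07, limma adjusted p = 1.68e-05). It lies almost midway between Abcb9 and Vps37b, a gene of the endosomal sorting machinery 14369 bp away. The region near Wnt11 had 467.2, 416.2 and 460.8 against 567.8, 572.2 and 586.2 (log2 difference 0.36, SE 0.06, limma adjusted p = 0.00053). In all 3 the groups were apart after scaling.

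Another 4 regions were higher in the siRNA-labelled libraries. Near Acot11, an acyl-CoA thioesterase (chr4:106816994-106817642, 11986 bp upstream), the scaled fragments were 45.8, 50.8 and 45.4 against 72.5, 86.2 and 68.0 (log2 difference 0.66, limma adjusted p = 0.0147). Near Cartpt, a neuropeptide gene with no start peak in any list (chr13:99830130-99831093, 67389 bp), they were 45.8, 43.9 and 43.5 against 67.7, 74.2 and 65.9 (0.63, limma adjusted p = 0.0228). All siRNA-labelled values were higher in both. Near Atp8b1, a phospholipid flippase (38224 bp), they were 64.7, 63.8 and 44.4 against 93.0, 76.4 and 86.2 (0.57, limma adjusted p = 0.0408). Near Synpo, an actin-associated protein (8599 bp), they were 91.7, 83.7 and 85.1 against 113.5, 125.4 and 118.7 (0.45, limma adjusted p = 0.0474).

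The pair that was lower lay on chromosome 17. Near Ier3, in the nearer of its regions, the scaled fragments were 198.0, 197.7 and 207.2 against 142.4, 159.2 and 154.2 (log2 difference −0.40, SE 0.09, limma adjusted p = 0.0228). The region with the Gm35692 start (chr17:45828226-45829812, 94119 bp upstream of 1600014C23Rik) held 197, 184 and 187 fragments before scaling against 100, 112 and 133 (log2 difference −0.44, SE 0.09, limma adjusted p = 0.0207). On its other side, 187180 bp away, is Vegfa, the angiogenic growth factor. A further region in the same gap, 64323 bp upstream, fell short of the threshold (log2 difference −0.37, SE 0.10, limma adjusted p = 0.0811) with 172, 167 and 174 against 104, 108 and 113 fragments. Both remaining regions of that gap, 12516 and 18075 bp upstream, differed by −0.02 (SE 0.10) and 0.13 (SE 0.11).

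**Figure D5:**
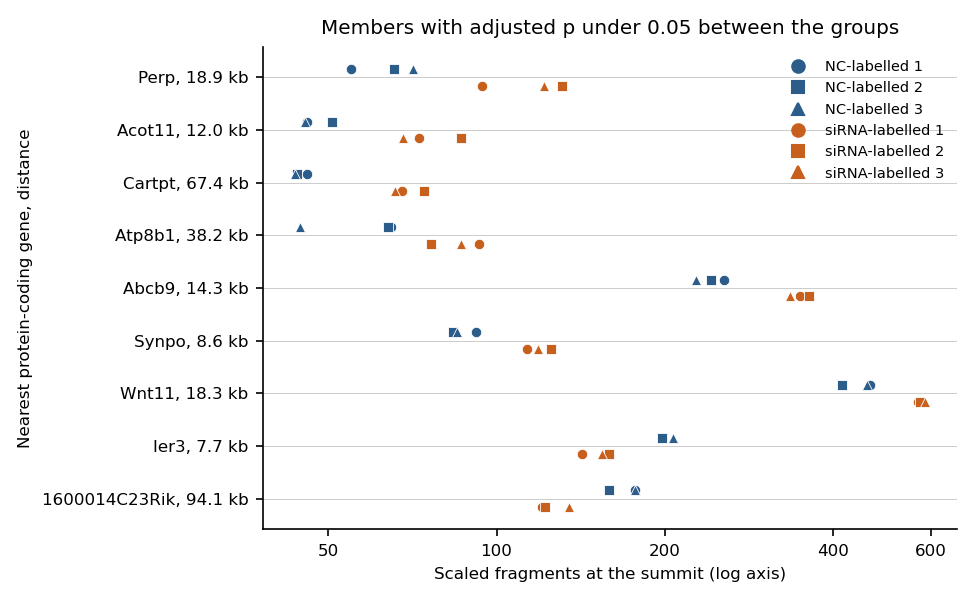
Scaled summit fragments (log x axis) of the 9 regions with an adjusted p under 0.05, by nearest protein-coding gene and distance (y axis). Blue marks are NC-labelled and orange marks siRNA-labelled libraries, and shape gives the replicate number. The groups do not overlap in any of the 9.

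These calls depended on how libraries were put on 1 scale and on single libraries. With the deposited fold enrichment in place of fragments none of the 9 passed (0 of 486, and 37 at an unadjusted p of 0.05). The log2 differences were then smaller, at 0.36 near Perp, 0.18 near Abcb9 and 0.16 near Wnt11. Without the intensity trend of limma none passed either (29 at an unadjusted p of 0.05), with the differences themselves unchanged at 0.84, 0.53 and 0.36. None of the 9 changed sign in any alternative. Scaled by background coverage, 12 regions were higher and 0 lower, against 111 and 10 of all 29602 shared regions. The siRNA-labelled values then lay all above in 113 of the 486 and all below in 20, and with the deposited fold enrichment in 75 and 18, so the balance between 53 and 62 turned under both. Without siRNA-labelled library 1 the counts of calls were 17 and 13 (151 and 229 of all shared regions), without siRNA-labelled library 2 they were 3 and 1, and without NC-labelled library 1, 2 or 3 they were 3, 2 and 3 higher and 0 lower. The regions near Perp and Abcb9 kept the call in 11 of 13 alternatives, that near Wnt11 in 10, and the other 6 in 4 to 7.

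Within the listed gene sets, the 50 regions nearest to a listed gene held 2 of the 9 calls, near Wnt11 and Ier3. Over the 486 regions 1.85% were called, and over all shared regions 0.23%. In 39 of the 50 the scaled groups overlapped, in 5 the siRNA-labelled values were all higher and in 6 all lower (10.9% and 12.8% of the 486, 7.76% and 8.16% of all shared regions), with a median log2 difference of −0.029. Near Id2 the difference was 0.33 (SE 0.10, limma adjusted p = 0.118), near Tnc −0.32 (SE 0.13, limma adjusted p = 0.294) and near Myc 0.10 (SE 0.11, limma adjusted p = 0.796). None of these 3 passed.

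Libraries of a group differed from each other by unequal amounts. The mean chi-square per region, which independent counting would put near 1, was 0.801 to 0.807 between NC-labelled libraries over the 486 regions. Between siRNA-labelled libraries 2 and 3 it was 0.723, against 1.261 and 1.068 for library 1 with each of them and 1.232 to 1.897 between groups. Libraries 2 and 3 were kept as separate samples because their labels name different siRNAs. Counted as 1 sample, they left 4 regions higher and 2 lower. Over all shared regions the mean was 0.691 to 0.827 for pairs within a group and 0.82 to 1.005 for pairs between groups. Most pairs between groups also fell under 1 there. Why values fell under 1 was not tested. The SEs and limma p-values rest on the spread within groups. Whether that spread is smaller than that of separate cultures was not tested.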

How the data were processed

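CUT&Tag for Arid3a was measured in 3 NC and 3 siArid3a libraries, grouped by the labels. Per the submitters' processing notes the tools were Bowtie2, Picard and MACS2 on mm10; the sources used here give no versions or options. The authors deposited 1 peak list per library, with an integer score, the fold enrichment (a ratio) and the −log10 of the p-value and q-value of each peak. These are the authors' values. The score was not used here. The q-value ranked peaks within a list and, in some alternatives, set a lower limit of 5 on −log10 q.

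Whole fragments and local background at each summit were solved from the deposited fold (pseudocount 1) and −log10 p, within a relative tolerance of 0.002, for 100% of peaks (Python 3.11.15, scipy 1.17.1). They carry counting error, and total reads were not used here. Regions were scaled by median-ratio factors and fitted with limma 3.58.1 (intensity trend, log2 of scaled fragments + 1, two-sided) with Benjamini-Hochberg adjustment over 29602 regions. Of 21883 protein-coding and 28056 other genes, positions came from the RefSeq table of GRCm38.p6, gene starts and strand from its promoter table (312 of 419 nearest genes matched). For a single region, 3 against 3 libraries cannot give an exact p under 0.1. The solver and the fit were also run on simulated data. No result of these runs is given here. Nothing is read from them about the strongest regions, the spread between libraries or the calls between groups.

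The members and the gene lists were chosen with earlier results of these data known. Named regions are the 12 strongest (1 of which is not reported here), those past an adjusted p of 0.05, up to 4 per gene list, the 5 genes with most regions, the 3 widest and 3 narrowest, 3 on either side of the threshold, and Arid3a. Regions with tRNA, microRNA or named lncRNA genes, the region near Btc with the Gm19619 start, the counts from the summit, and a few further genes with no start peak or several regions were chosen after their values were seen. Alternatives covered the membership rule, scaling, value, pseudocount, trend, replicate block and each library left out.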

Additional observations from a re-analysis of the deposited data

How the results depend on the processing

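The number of regions moved with the rule: 778 at percentile 85, 236 at percentile 95, and 315 with all genes of the table excluded, while leaving out 1 library gave 494 to 529. Ranking the deposited fold enrichment kept 265 of the 486 among 399 regions. Between the groups, 7 regions were higher and 2 lower in the siRNA-labelled libraries (29 and 39 of all shared regions). Scaled by background coverage these counts were 12 and 0 (111 and 10), and this scaling moved the median log2 difference of all shared regions to 0.109 and that of the 486 to 0.104. They were 0 and 0 (0 and 0) with the deposited fold enrichment, where 37 of the 486 passed an unadjusted p of 0.05, and 0 and 0 (0 and 0) without the intensity trend of limma, where 29 did. A pseudocount of 4 gave 6 and 6 (36 and 69), and averaging siRNA-labelled libraries 2 and 3 gave 4 and 2 (10 and 22). Leaving out 1 library gave 2 to 17 and 0 to 13 (5 to 151 and 6 to 229), with the highest counts without siRNA-labelled library 1. The siRNA-labelled values were all above the NC-labelled in 113 regions under background scaling (53 in the main comparison) and all below in 20 (62), and in 75 and 18 with the deposited fold enrichment, so that the balance of directions turned under both. The causes were not tested. With the replicate number as a block the counts were 8 and 3 (41 and 68). Deviations of same-numbered libraries from their group means correlated at 0.042, 0.033 and −0.023. Counting error can keep such correlations low, so they cannot tell whether a number marks a shared culture.

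Nearest genes with a start peak in all 6 lists and listed nearest genes stayed within 1.5 times of 347 and 44 under every alternative run for them. None of the named regions past the threshold changed sign. The median SE of the log2 difference between groups was 0.117 over the 486 regions. The planned motif search in the regions themselves was not run, since no genome sequence was used here.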
